A study of Homo sapiens with 6 samples.

Results

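The genes of cholesterol synthesis and sterol control described here are 27 genes taken by symbol from the 23354 genes of the deposited count table, by their known function, with earlier results of these data known. They form 3 classes: 8 early genes that lead from acetyl-CoA to the prenyl diphosphates, 11 late genes that turn farnesyl diphosphate into cholesterol, and 8 genes that regulate the pathway or take up, move or store sterols. All 27 were in the table and all 27 passed the low-count filter, which left 13466 genes for testing. The list does not hold every gene of the pathway.

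RNA was sequenced from LNCaP, an established human prostate cancer line that responds to androgens, grown in medium with fetal bovine serum. Both groups received the androgen dihydrotestosterone (DHT) at 1 nM for 48 h. The DHT group had 3 libraries and no extract, and the DHT+WBM group had 3 libraries from cells that also received white button mushroom (WBM) extract at 3 μL/mL. The labels do not name a vehicle for the cells without extract, and no cells without DHT were analysed here. They also do not say whether the 3 libraries of a group came from separate cultures, and p-values therefore rest on a spread that could be purely technical.

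Cholesterol is built from acetyl-CoA through mevalonate, isoprenoid diphosphates, squalene and lanosterol, and the isoprenoids before squalene also feed protein prenylation, dolichol and ubiquinone. The transcription factor SREBP2, the product of SREBF2, switches on most genes of the route when membrane sterol is low. The escort protein SCAP carries SREBP2 from the endoplasmic reticulum to the Golgi for cleavage, and INSIG proteins hold SCAP back when sterol is plentiful. INSIG1 is itself a target of SREBP2. The liver X receptors (LXRs) sense oxysterols and act in the opposite sense, through export genes and through MYLIP, an E3 ubiquitin ligase that sends lipoprotein receptors for degradation. In the prostate, cholesterol is also a precursor for steroid hormones, and androgens are known to promote lipid synthesis in LNCaP cells.

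Library totals ran from 19127357 to 21490953 counts, 16511 to 16720 genes were detected per library, and no library stood apart in total or in detected genes. All 9 luminal prostate markers exceeded 1 CPM (CPM is a gene's count scaled to a common library total, here with TMM composition factors) in every library, with summed levels of 5195 to 5432 CPM in DHT and 3700.2 to 3791 CPM in DHT+WBM. Among these markers, the androgen targets KLK3 and KLK2 had means of 1683 and 335 CPM in DHT against 617 and 142 CPM in DHT+WBM, and the keratins KRT18 and KRT8 had 244 and 262 CPM against 246 and 299.5 CPM. The 4 basal markers summed to at most 0.382 CPM. The sum of the 4 leukocyte markers was 21.6 to 23.8 CPM in DHT and 80.6 to 89.6 CPM in DHT+WBM. Nearly all of it was CD68, at 23.0 and 84.5 CPM. The defining leukocyte genes PTPRC and CD3E had 3 and 3 counts over the 6 libraries together.

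With the extract, more of the 27 genes were higher than lower, and the changes were small. At an adjusted p under 0.05 in edgeR (quasi-likelihood test, Benjamini-Hochberg over all tested genes), 11 members rose, 3 fell and 13 did not pass. Over all tested genes 58.2% passed, 29.2% higher and 29% lower (the same test), so the 14 called members are a share near the background (51.9%). Of the 14 called members, 78.6% were higher, against 50.1% of the called genes overall. The median log2 ratio of the members, DHT+WBM over DHT, was 0.11, beside 0.00 over all tested genes. An absolute log2 ratio over 0.5 was reached by 3 members, INSIG1, TM7SF2 and FDFT1, whereas 19.2% of all tested genes reached it. Summed over all 27 genes, the level was 3017, 2997 and 3085 CPM in the DHT libraries and 3602, 3507 and 3647 CPM in the DHT+WBM libraries, with no overlap between the groups. FDFT1 and INSIG1 carried most of this difference, with means of 576 and 169 CPM in DHT and 826 and 296 CPM in DHT+WBM. The sum is therefore no measure of a rise shared by all members, and 6 of the 27 had a negative log2 ratio. In bulk RNA, a change in the make-up of the culture and a change in RNA per cell cannot be told apart.

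**Figure D1:**
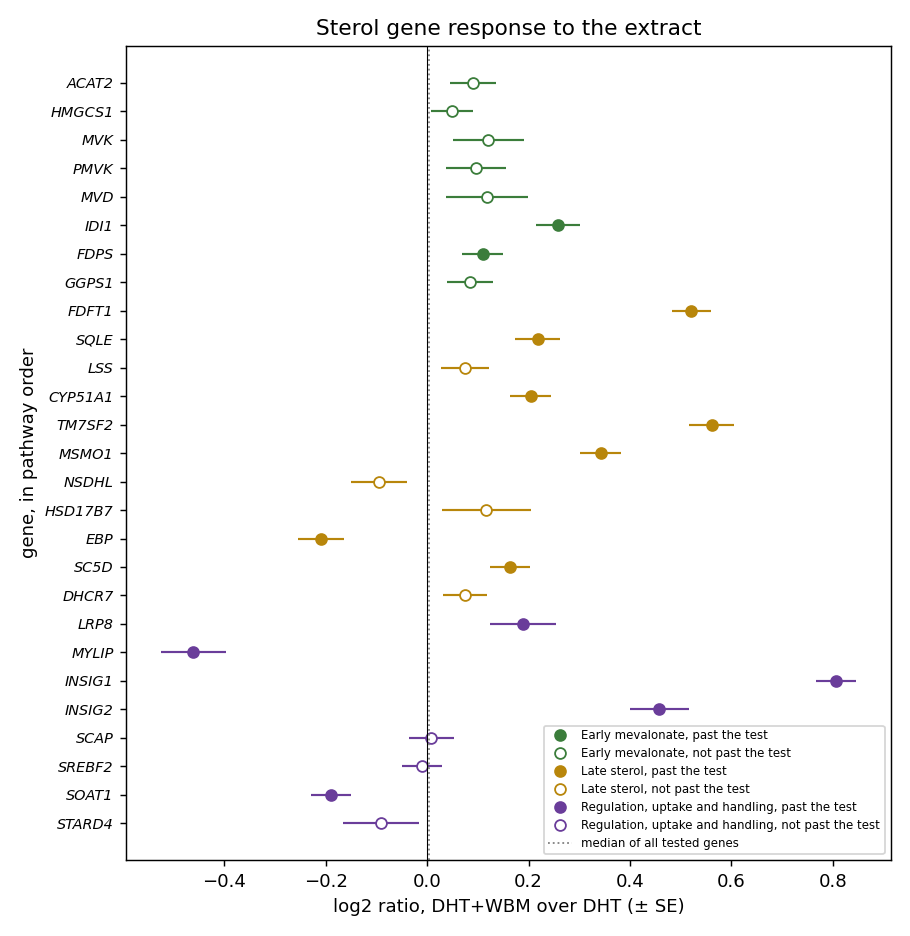
Log2 ratio of each of the 27 genes, DHT+WBM over DHT, with its standard error (SE), in pathway order from top to bottom and coloured by class. Filled points passed edgeR's test and open points did not. The early genes lie between 0.05 and 0.26, the late genes spread from -0.21 to 0.56, and the regulatory genes run from -0.46 to 0.81.

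The early genes showed small differences. Of 8, 2 rose, 0 fell and 6 did not pass edgeR's test. That is 25% called, all higher, beside 58.2% of all tested genes called and 29.2% called higher. At an unadjusted p under 0.05 the count of lower early genes was also 0, and it was 0 with DESeq2 and limma-voom. All 8 log2 ratios were above 0, with a median of 0.10, so no threshold on p could give a lower early gene in edgeR's fit. Their summed level was 677, 714 and 732 CPM with DHT and 770.2, 748 and 770.0 CPM with DHT+WBM, a ratio of 1.08. The count of early genes that rose depended on scaling: it was 7 with library totals alone and 4 with upper-quartile factors.

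IDI1 (chromosome 10, 1085964 to 1102644, hg19), the isomerase that makes dimethylallyl diphosphate, had 103, 112 and 105 CPM in the DHT libraries and 132, 126 and 127 CPM in the DHT+WBM libraries. Every DHT+WBM library was above every DHT library, and the log2 ratio was 0.26 ± 0.04 (SE, edgeR adjusted p = 2.53e-06). IDI1 shares 7167 bases with WDR37 on the opposite strand. WDR37 averaged 707 counts against 2410 for IDI1 and had a log2 ratio of -0.14, and its part in the IDI1 value was not tested. FDPS (chromosome 1, 155278539 to 155290457), which joins the isoprenoid units into farnesyl diphosphate, had 121, 122 and 124 CPM with DHT against 131, 131 and 134 CPM with DHT+WBM. The groups did not overlap, but the difference was small, with a log2 ratio of 0.11 ± 0.04 (edgeR adjusted p = 0.0189). This call was lost without DHT replicate 1 (log2 ratio 0.10, edgeR adjusted p = 0.0561), without DHT+WBM replicate 1 (0.11, edgeR adjusted p = 0.0553) or DHT+WBM replicate 3 (0.09, edgeR adjusted p = 0.127). The early count was then 1, and without DHT replicate 3 it was 4. FDPS also has processed pseudogenes with which reads can be shared. It shares 207 bases with RUSC1-AS1 on the opposite strand. RUSC1-AS1 averaged 26.2 counts against 2609 for FDPS and had a log2 ratio of 0.92, and its part in the FDPS value was not tested.

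The entry enzymes did not pass the test. HMGCS1 (chromosome 5, 43287572 to 43313614), the cytosolic synthase that condenses acetyl-CoA and acetoacetyl-CoA, had 208, 224 and 237 CPM in the DHT libraries and 236, 226 and 230.1 CPM in the DHT+WBM libraries. The groups overlapped, and the log2 ratio of 0.05 ± 0.04 (edgeR adjusted p = 0.317) became -0.00087 without DHT replicate 1, the lowest library. ACAT2, the thiolase that supplies acetoacetyl-CoA, had 85.4 ± 3.89 CPM in DHT and 90.8 ± 3.84 CPM in DHT+WBM (SD, n = 3), with a log2 ratio of 0.09 ± 0.05. The 3' end of ACAT2 shares 558 bases with TCP1 on the opposite strand. TCP1 averaged 9631 counts against 1807 for ACAT2 and had a log2 ratio of -0.35, and its part in the ACAT2 value was not tested.

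The middle steps did not pass the test either. The mevalonate kinase gene MVK, the phosphomevalonate kinase gene PMVK and the decarboxylase gene MVD had log2 ratios of 0.12, 0.10 and 0.12, from mean levels in DHT of 19.3, 38.6 and 13.7 CPM. MVD was close to level in 5 libraries, between 13.5 and 14.2 CPM, and at 16.7 CPM in DHT+WBM replicate 1. GGPS1, which makes the geranylgeranyl diphosphate used for protein prenylation, had 98 ± 6.15 CPM in DHT and 104 ± 1.87 CPM in DHT+WBM (SD, n = 3) and a log2 ratio of 0.08 ± 0.05. It shares 868 bases with ARID4B on the opposite strand, which averaged 1803.5 counts against 2069.5 for GGPS1 and had a log2 ratio of 0.12.

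Of the 11 late sterol genes, 6 rose, 1 fell and 4 did not pass edgeR's test, with a median log2 ratio of 0.16. The share called was 63.6%, near the 58.2% of all tested genes, and the classes were not tested against each other. Their summed level was 1597, 1559 and 1631 CPM with DHT and 1987, 1928 and 2028 CPM with DHT+WBM, a ratio of 1.24. The 3 DHT+WBM sums all exceeded the 3 DHT sums. FDFT1 makes up a large part of this sum, at 576 CPM of 1596 CPM in DHT and 826 CPM of 1981 CPM in DHT+WBM. It also carried most of the difference, so the ratio of 1.24 is not typical of the late genes.

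FDFT1, squalene synthase, catalyses the first step committed to sterols. Its level was 558, 571 and 598 CPM in the DHT libraries and 837, 803 and 839 CPM in the DHT+WBM libraries. The groups were well apart, at 1.44-fold and a log2 ratio of 0.52 ± 0.04 (edgeR adjusted p = 1.22e-14). SQLE, squalene epoxidase, is the next enzyme and a rate-limiting step, and it had 94.6, 91.1 and 89.5 CPM with DHT against 104, 103 and 113 CPM with DHT+WBM. Its rise was smaller, at 1.16-fold and a log2 ratio of 0.22 ± 0.04 (edgeR adjusted p = 6.59e-05). LSS, the cyclase that closes the rings to give lanosterol, did not pass, with overlapping groups and a log2 ratio of 0.07 ± 0.05.

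CYP51A1 (chromosome 7, 91741463 to 91808845), the cytochrome P450 that removes the 14-alpha methyl group of lanosterol, had 162, 161 and 156 CPM in the DHT libraries and 179, 182 and 190.4 CPM in the DHT+WBM libraries. It rose 1.15-fold (log2 ratio 0.20 ± 0.04, edgeR adjusted p = 3.57e-05), with each DHT+WBM library above each DHT library. TM7SF2 (chromosome 11, 64879326 to 64883707), the C14 reductase of the step that follows, had 114, 101 and 113 CPM with DHT against 160.2, 157 and 165 CPM with DHT+WBM. This was the largest log2 ratio among the 19 enzymes, at 0.56 ± 0.04 (edgeR adjusted p = 8.29e-14), although DHT replicate 2 lay below the other DHT libraries. Its span shares 7 bases with VPS51 on the same strand, whose log2 ratio was 0.02.

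LBR, the lamin B receptor, carries the same C14 reductase activity as TM7SF2 and moved the other way. It had 126, 129.8 and 108 CPM in the DHT libraries and 91, 90.1 and 96.5 CPM in the DHT+WBM libraries, and fell with a log2 ratio of -0.39 ± 0.05 (edgeR adjusted p = 1.58e-08). The DHT libraries of LBR were widely spread, but all of them lay above the DHT+WBM libraries. LBR is not among the 27 genes and was singled out after its values were seen.

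MSMO1 (chromosome 4, 166248818 to 166264314), the C4 methyl oxidase, had 114, 113 and 117 CPM in the DHT libraries and 144, 143 and 148 CPM in the DHT+WBM libraries. The libraries within each group were close together and the rise was 1.27-fold, a log2 ratio of 0.34 ± 0.04 (edgeR adjusted p = 2.84e-09). Its partners in C4 demethylation did not pass the test. NSDHL, the C4 decarboxylase, had 41.7 ± 2.35 CPM in DHT and 39.1 ± 0.938 CPM in DHT+WBM (SD, n = 3) and HSD17B7, the 3-ketosteroid reductase, had 10.2 ± 0.343 CPM in DHT and 11 ± 0.538 CPM in DHT+WBM (SD, n = 3), with log2 ratios of -0.09 ± 0.05 and 0.12 ± 0.09. Without DHT replicate 2, NSDHL was called lower, at -0.14 (edgeR adjusted p = 0.0285). HSD17B7 had the lowest level per length of the enzymes and has a pseudogene copy, so its value is less certain.

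EBP (chromosome X, 48380164 to 48387104), the sterol isomerase that shifts the ring double bond, was the late gene that fell. It had 120.0, 110.2 and 119.5 CPM in the DHT libraries and 102, 94 and 106 CPM in the DHT+WBM libraries. The groups did not overlap, and EBP was 1.16-fold lower, a log2 ratio of -0.21 ± 0.05 (edgeR adjusted p = 0.000176). SC5D (chromosome 11, 121163388 to 121184119), the C5 desaturase that acts after EBP, went up, with 155, 156 and 158 CPM with DHT against 174, 171 and 181 CPM with DHT+WBM. Its log2 ratio was 0.16 ± 0.04 (edgeR adjusted p = 0.000523). DHCR7, the reductase that turns 7-dehydrocholesterol into cholesterol, had 154 ± 10.4 CPM in DHT and 162 ± 5.16 CPM in DHT+WBM (SD, n = 3) and did not pass, at 0.07 ± 0.04.

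**Figure D2:**
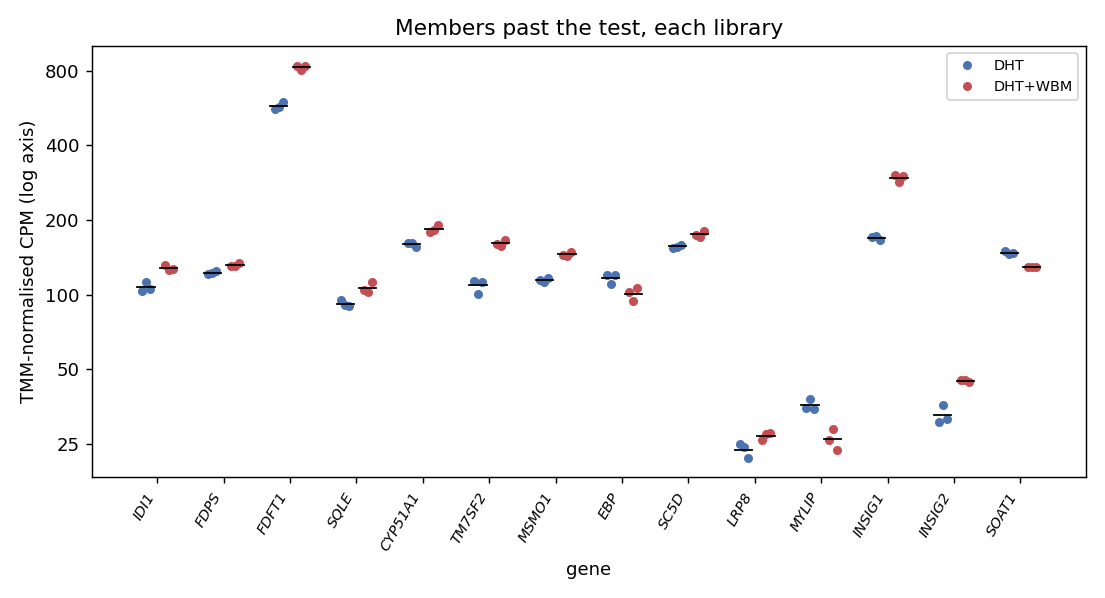
TMM-normalised CPM of the 14 members past edgeR's test, on a log axis, with 1 point per library (DHT in blue, DHT+WBM in red) and a black bar at each group's mean. INSIG1 goes from 169 to 296 CPM, and EBP, MYLIP and SOAT1 are the genes with the red points below the blue.

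The regulatory and handling genes split. Of 8, 3 rose, 2 fell and 3 did not pass edgeR's test (62.5% called, 58.2% over all tested genes). The median log2 ratio was -0.00, whose sign changed with scaling and with single libraries left out. Their summed level was 742, 724 and 722 CPM with DHT and 845, 831 and 849.6 CPM with DHT+WBM. The groups did not overlap in this sum, and INSIG1 carried most of the difference, since its mean rose by more CPM than the sum did.

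The genes of SREBP2 and its escort did not pass the test. SREBF2 (chromosome 22, 42229106 to 42302375) had 213, 197 and 201 CPM in the DHT libraries and 199.95, 202 and 205 CPM in the DHT+WBM libraries. The DHT+WBM libraries lay inside the range of the DHT libraries, and the log2 ratio was -0.01 ± 0.04 (edgeR adjusted p = 0.835). SCAP (chromosome 3, 47455184 to 47517445), the escort, had 105, 96.2 and 105 CPM with DHT against 102, 99.7 and 106 CPM with DHT+WBM, and a log2 ratio of 0.01 ± 0.04 (edgeR adjusted p = 0.889). Cleavage of SREBP2, which sets its activity, is not measured by RNA counts.

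INSIG1 (chromosome 7, 155089486 to 155101945) showed the largest change of the 27 genes. It had 169.9, 172 and 166 CPM in the DHT libraries and 303, 285 and 299.7 CPM in the DHT+WBM libraries. The lowest DHT+WBM library was far above the highest DHT library, at 1.75-fold over the means and a log2 ratio of 0.81 ± 0.04 (edgeR adjusted p = 3.31e-20). Of all tested genes, 91.1% had a smaller absolute log2 ratio. It was also the member that kept its call against a minimum change of 1.5-fold. INSIG2 (chromosome 2, 118846050 to 118867597), the paralogue that also retains SCAP, rose as well, with 30.6, 35.9 and 31.6 CPM with DHT against 45.1, 45.2 and 44.2 CPM with DHT+WBM. Its log2 ratio was 0.46 ± 0.06 (edgeR adjusted p = 1.34e-08), and DHT replicate 2 was the highest of the DHT libraries.

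Of the genes tied to lipoprotein receptors, MYLIP (chromosome 6, 16129317 to 16148478) fell. It had 34.9, 37.9 and 34.6 CPM in the DHT libraries and 25.8, 28.6 and 23.7 CPM in the DHT+WBM libraries. The groups were apart, 1.38-fold lower with a log2 ratio of -0.46 ± 0.06 (edgeR adjusted p = 9.86e-08). LRP8 (chromosome 1, 53708041 to 53793821), a receptor of the lipoprotein receptor family that binds apolipoprotein E and reelin and is a substrate of MYLIP, had 24.8, 24.2 and 21.9 CPM with DHT against 25.9, 27.3 and 27.7 CPM with DHT+WBM. Its rise was slight, at 0.19 ± 0.06 (edgeR adjusted p = 0.0116), and was lost without DHT replicate 3 (0.14, edgeR adjusted p = 0.0918) or DHT+WBM replicate 3 (0.16, edgeR adjusted p = 0.0715). LRP8 shares 415 bases with LOC100507564 on the opposite strand. That gene averaged 71.2 counts against 519 for LRP8 and had a log2 ratio of 0.30, and its part in the LRP8 value was not tested.

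Of the genes of storage and transport, SOAT1 fell. SOAT1 (chromosome 1, 179262849 to 179327814), which esterifies cholesterol for storage in droplets, had 149.8, 145 and 147 CPM in the DHT libraries and 129, 129 and 129.7 CPM in the DHT+WBM libraries. The libraries within a group were nearly equal and the groups did not overlap, and the fall was 1.14-fold, with a log2 ratio of -0.19 ± 0.04 (edgeR adjusted p = 8.66e-05). STARD4, a soluble sterol carrier and SREBP2 target, had 15.2 ± 0.415 CPM in DHT and 14.2 ± 0.22 CPM in DHT+WBM (SD, n = 3). Its groups did not overlap, but the log2 ratio of -0.09 ± 0.08 did not pass (edgeR adjusted p = 0.308). Counting libraries alone, 16 of 27 members had groups that did not overlap, against 62.2% of all tested genes. Of these, 12 were higher (31.1% of all tested genes were) and 4 were lower (31.1% of all tested genes were).

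Promoters are shown for the transcription factor gene of the route (SREBF2), the gene with the largest change (INSIG1), an entry enzyme that did not pass the test (HMGCS1) and a sterol carrier that did not pass it either (STARD4). Each line gives the 250 bases before an annotated start, on the gene's own strand, from RefSeq (GRCh38.p14). Capitals mark matches on either strand to TCACNCCAC (the core of the sterol regulatory element bound by SREBPs), CCAAT (NF-Y), GGGCGG (Sp1) and CACGTG (an E-box).
SREBF2 (chr22:41832855-41833104, plus strand): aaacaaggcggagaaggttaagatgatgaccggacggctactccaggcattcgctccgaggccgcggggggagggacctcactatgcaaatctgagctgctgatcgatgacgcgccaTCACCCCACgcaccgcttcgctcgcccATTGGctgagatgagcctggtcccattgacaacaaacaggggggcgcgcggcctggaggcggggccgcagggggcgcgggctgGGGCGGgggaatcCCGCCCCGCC
INSIG1 (chr7:155297628-155297877, plus strand): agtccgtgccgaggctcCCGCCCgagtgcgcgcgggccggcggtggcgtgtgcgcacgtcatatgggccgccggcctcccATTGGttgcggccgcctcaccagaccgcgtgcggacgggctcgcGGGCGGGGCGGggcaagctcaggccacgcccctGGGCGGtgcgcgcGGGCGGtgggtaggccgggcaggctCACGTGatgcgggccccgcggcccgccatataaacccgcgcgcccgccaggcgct
HMGCS1 (chr5:43313413-43313662, minus strand): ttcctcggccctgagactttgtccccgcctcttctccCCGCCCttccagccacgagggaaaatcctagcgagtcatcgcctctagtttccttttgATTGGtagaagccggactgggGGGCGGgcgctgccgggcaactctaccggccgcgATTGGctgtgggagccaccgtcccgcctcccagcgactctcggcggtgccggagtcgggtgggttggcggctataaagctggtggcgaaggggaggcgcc
STARD4 (chr5:111512536-111512785, minus strand): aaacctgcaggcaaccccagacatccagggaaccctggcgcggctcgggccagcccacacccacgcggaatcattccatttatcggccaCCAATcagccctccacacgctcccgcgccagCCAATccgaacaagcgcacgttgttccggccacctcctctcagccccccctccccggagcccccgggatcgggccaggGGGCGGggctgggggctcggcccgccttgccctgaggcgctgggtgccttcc

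Of the 27 members, 24 had a RefSeq window of 300 bases (250 before and 50 after the start), 32 windows in all because some genes have several starts. TCACNCCAC was found in 1 of the 24 genes, SREBF2, 133 bases before its start, and in 1.39% of all 27305 genes with a window. CCAAT was found in 19 of 24 members and in 39.7% of all genes. GGGCGG was found in 23 of 24 members and in 48.3% of all genes, and CACGTG in 4 of 24 (INSIG1, LSS, SC5D and SCAP) and in 8.77%. In the members' windows no match overlapped a match of another motif. The windows shown for SREBF2, INSIG1, HMGCS1 and STARD4 each hold CCAAT and GGGCGG. HMGCS1 has another annotated start, not shown, whose window holds GGGCGG and no CCAAT. The 27305 genes were not limited to the 13466 that passed the low-count filter, whereas all members passed it. The shares of members and of all genes are thus from unlike sets and were not tested against each other. These matches are descriptions of letters in a short window, and a missing match says nothing of binding.

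Levels per gene length set the members in an order that the extract altered at several places. In RPKM (CPM per kilobase of the gene length given in the table), FDFT1 was highest in both groups, at 150.0 ± 5.36 RPKM in DHT and 215 ± 5.39 RPKM in DHT+WBM (SD, n = 3). LRP8 was lowest in both, at 2.4 ± 0.154 RPKM and 2.74 ± 0.0925 RPKM. INSIG1 went from position 5 to position 2, at 55 ± 1.04 RPKM and 96.3 ± 3.08 RPKM, and EBP from position 2 to position 4, at 92.7 ± 4.37 RPKM and 80.2 ± 4.97 RPKM. In DHT the libraries of 12 of the 26 neighbouring pairs overlapped, so much of the order is within the spread. The run from ACAT2 through GGPS1, SQLE and IDI1 to PMVK could not be separated in DHT, between 31.9 and 29.8 RPKM, and MVD and STARD4 overlapped at 4.98 and 4.91 RPKM. With DHT+WBM 11 of 26 neighbouring pairs overlapped, among them FDPS, EBP and TM7SF2, at 80.7, 80.2 and 75.1 RPKM. INSIG1 exceeded INSIG2 in both groups, at 55 against 12.7 RPKM in DHT.

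**Figure D3:**
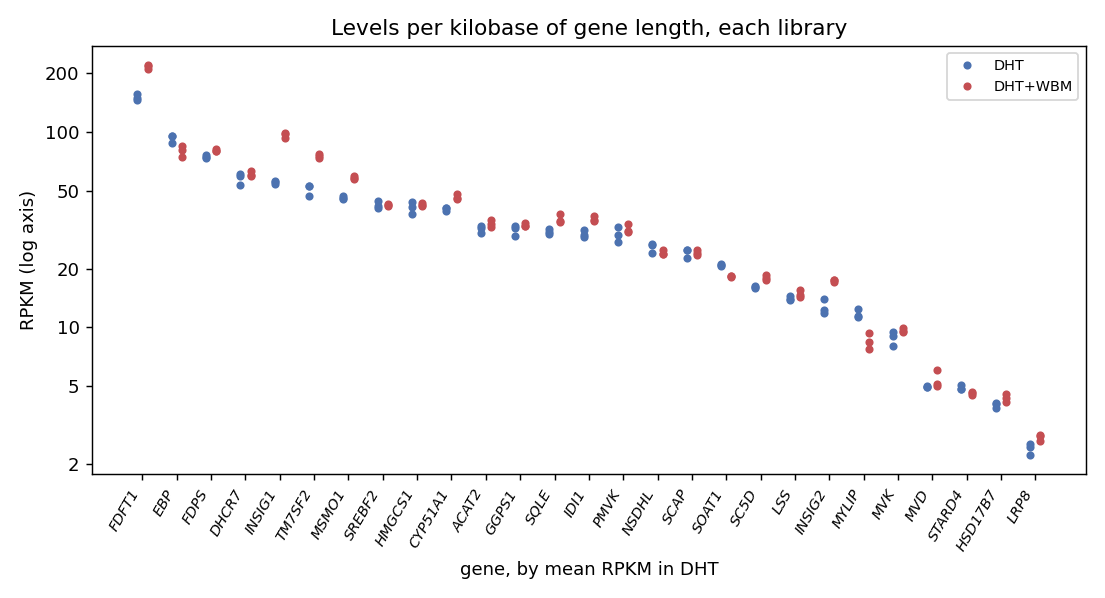
RPKM of the 27 genes in each library, on a log axis, with genes ordered by their mean in DHT (DHT in blue, DHT+WBM in red). FDFT1 lies highest and LRP8 lowest in both groups, and INSIG1, TM7SF2 and MSMO1 stand above the run of DHT points.

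Genes around the route were read from lists of the same fit. Of 8 LXR and export genes, 7 passed the filter, 2 of them higher and 3 lower by edgeR's test. That is 71.4% called, beside 58.2% of all tested genes, and the median log2 ratio of the list was -0.08. ABCG1, a cholesterol exporter and LXR target, had 19.2, 19.6 and 17.4 CPM in the DHT libraries and 12.3, 13.9 and 11.4 CPM in the DHT+WBM libraries and fell with a log2 ratio of -0.58 ± 0.08. MYLIP, an LXR target as well, fell beside it, but MYLIP is itself a member, so its fall is counted both there and in this list. NR1H2, which encodes LXR-beta, rose, with a log2 ratio of 0.29 ± 0.05.

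In transport within the cell, 14 of 16 genes passed the filter. Of these, 4 rose and 5 fell (64.3% called, 58.2% over all tested genes), with a median log2 ratio of 0.03. NPC1, the lysosomal cholesterol exporter, rose from 80.7 ± 6.68 to 122 ± 2.81 CPM (SD, n = 3), a log2 ratio of 0.59 ± 0.05, and GRAMD1C, of a family that moves sterol between membranes, rose with 0.58 ± 0.08. TMEM97, which binds NPC1 and is known as an SREBP2 target, fell from 222 ± 8.57 to 153 ± 5.41 CPM, a log2 ratio of -0.53 ± 0.04. It thus went opposite to the 11 members that rose and the same way as the 3 that fell, while 13 members did not pass. The groups of TMEM97 did not overlap.

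In SREBP processing and sterol-regulated degradation all 19 genes were tested. Of these, 4 rose and 9 fell (68.4% called, 58.2% over all tested genes), with a median log2 ratio of -0.09. SEC24D, a coat protein of vesicles that leave the endoplasmic reticulum, fell with -0.43 ± 0.05, and ERLIN1, a membrane scaffold of sterol-regulated degradation, with -0.36 ± 0.05. The proteases that cleave SREBPs were not called, with log2 ratios of -0.01 for MBTPS1 and 0.10 for MBTPS2. Both were chosen for mention after their values were seen.

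Of 18 genes in the branch that draws isoprenoids away from sterols, 16 passed the filter, of which 2 rose and 8 fell, with a median log2 ratio of -0.14. The share called was 62.5%, near the 58.2% of all tested genes. ICMT, which methylates prenylated proteins, fell with -0.31 ± 0.04, and RABGGTB, a subunit of the transferase that prenylates RAB proteins, with -0.25 ± 0.04. SRD5A3, a polyprenol reductase of dolichol synthesis, rose with 0.37 ± 0.04.

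The list of storage and oxysterol metabolism also holds the C14 reductase LBR, and 7 of its 12 genes passed the filter. Of these, 3 rose and 1, LBR, fell (57.1% called, 58.2% over all tested genes), with a median log2 ratio of -0.12. EPHX1, the microsomal epoxide hydrolase, rose from 428 ± 21.2 to 674 ± 14.8 CPM (SD, n = 3), and NCEH1, a hydrolase of cholesterol esters, rose with 0.58 ± 0.05 while SOAT1, the enzyme that makes the esters, fell. CES1, a carboxylesterase, was rare, at 0.36 ± 0.0848 CPM in DHT and 1.85 ± 0.258 CPM in DHT+WBM.

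The SREBF1 arm, which serves fatty acid synthesis, is driven by a second SREBP gene. SREBF1 had 282, 254 and 262 CPM in the DHT libraries and 153, 157 and 165 CPM in the DHT+WBM libraries and fell with a log2 ratio of -0.75 ± 0.04 (edgeR adjusted p = 3.67e-18). The matching value of SREBF2 was -0.01 ± 0.04, and the difference between these genes was not tested. Of the 14 genes in this list, 6 rose and 4 fell (71.4% called, 58.2% over all tested genes). The median log2 ratio was 0.09. LPIN1, a phosphatidate phosphatase, rose with 0.54 ± 0.05, and MID1IP1, a regulator of acetyl-CoA carboxylase, fell with -0.42 ± 0.04. These lists were not tested as sets, and a difference between the lists was not tested.

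**Figure D4:**
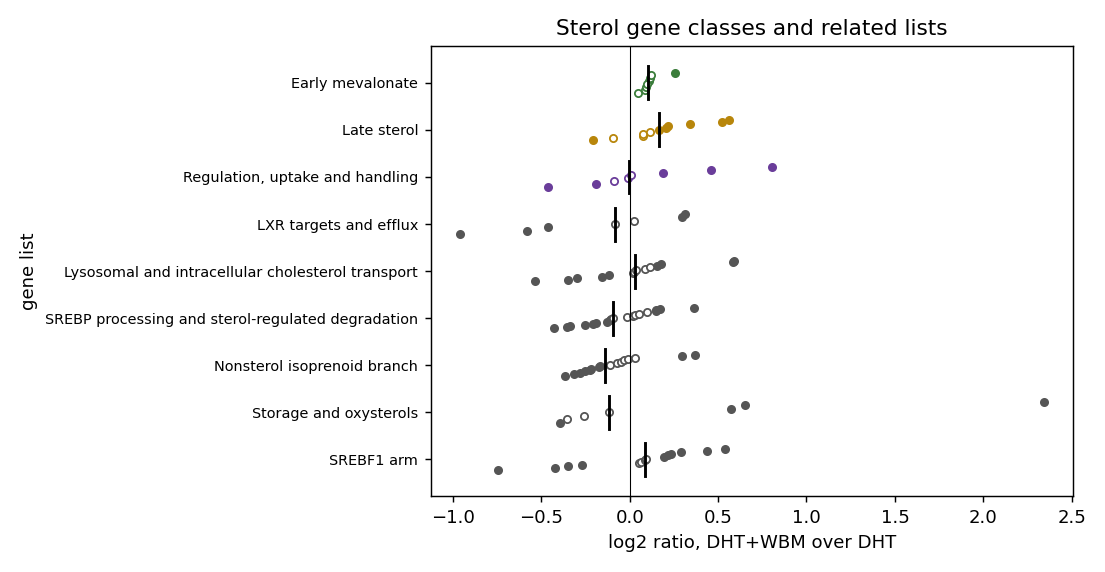
Log2 ratios, DHT+WBM over DHT, of the tested genes in the 3 classes (coloured) and the 6 related lists (grey), with filled points past edgeR's test, open points not past it, and a black bar at each list's median. The late sterol genes have a median of 0.16 and the isoprenoid branch a median of -0.14.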

How the data were processed

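The deposited table gives unnormalized whole-number read counts for each gene with its span and length, and the length was used here to turn CPM into RPKM. The submitters' processing notes list hg19 as the build and, with no role or order, edgeR 3.28.1, HTSeq 0.6.0, STAR 2.6.0 and bcl2fastq 2.18.0.12. The annotation and the strand setting are not given in the sources. Without a known strand setting, reads of overlapping genes cannot be told apart. Of the 27 members, 6 overlap a gene with a mean of at least 10 counts.

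Groups came from the sample titles, and table columns were matched by the code in each title. The fit used edgeR 4.0.16 in R 4.3.3, with filterByExpr (minimum count 10, minimum total 15), TMM factors, and the two-sided quasi-likelihood F-test of DHT+WBM against DHT with Benjamini-Hochberg adjustment over 13466 genes. A gene with an adjusted p under 0.05 is called higher or lower. The SE is the absolute log2 fold change divided by the square root of F. The fit was checked on simulated counts. DESeq2 1.42.0 and limma 3.58.1 (voom) were alternatives. The members and lists were chosen with earlier results of these data known. All 27 members are named. From each related list up to 3 called genes with the smallest adjusted p are named, and other genes only as list members or overlapping neighbours. LBR, MBTPS1 and MBTPS2 were added after their values were seen. Some genes of these lists are not reported here. Motifs were searched in RefSeq windows of GRCh38.p14, whose coordinates were not mixed with hg19.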

Additional observations from a re-analysis of the deposited data

How the results depend on the processing

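All 27 members stayed on the same side of the test, in the same direction where called, with RLE factors, DESeq2, limma-voom and a 1 CPM minimum in 3 libraries. Whether the same replicate numbers mark paired libraries is not settled by these values. Deviations from the group means correlated by 0.05, 0.08 and 0.02 over 13466 genes for libraries of the same number. For libraries of different numbers the correlations ran from -0.11 to 0.07, the highest between DHT replicate 3 and DHT+WBM replicate 1. With the replicate number as a block, 11 members were higher and 3 lower, and 4079 and 4030 of all genes (3928 and 3909 without the block).

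With library totals only, 18 members were higher (7 of them early), and with upper-quartile factors 15 (4 early). The median of all tested genes moved from 0.00 to 0.05 and 0.03 there. Without the low-count filter the early count was 1 (FDPS was lost), and so it was at an adjusted p under 0.01. Against a minimum change of 1.5-fold, 1 member was higher (INSIG1) and 0 lower. The late class then had 0 higher and 0 lower, and the early class 0. In the regulatory class the counts were 1 and 0. Of the related lists, the storage list kept 1 higher and the SREBF1 arm 1 lower, and the other counts were 0. The storage gene was CES1, which passed the low-count filter only through the DHT+WBM libraries. Over all genes 496 were higher and 459 lower. Without the 16 members whose span overlaps any other gene, 4 were higher and 1 lower, because fewer members were counted. Many of those neighbours are microRNAs or records with spans that cross much of a chromosome. Without the 6 that overlap a gene with a mean of at least 10 counts, a setting chosen after seeing the data, 7 were higher and 3 lower.

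With 1 library left out at a time, 9 to 12 members were higher and 3 to 4 lower. The early count ran from 1 to 4 higher and the late count from 1 to 2 lower. For the other moves the cause was not tested. MVD, HSD17B7 and STARD4 had the fewest counts of the members, so counting error is largest for them.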

Other observations

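The members varied more between the DHT libraries than between the DHT+WBM libraries. The median coefficient of variation was 4.45% in DHT and 2.92% in DHT+WBM, and it was larger in DHT for 18 of the 27 genes. Over all genes with at least 20 counts in a pair of libraries, the chi-square statistic per degree of freedom was 3.77 to 4.33 for pairs of DHT libraries and 1.73 to 2.02 for pairs of DHT+WBM libraries, above 1 in each pair, so no library was a repeat of another within sampling noise. The difference in spread between the groups was not tested.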
